A study of Mus musculus with 18 samples.

Results

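The calcium ionophore ionomycin and the cytokine TGFb were set against each other directly in 3 mouse pancreatic ductal adenocarcinoma lines, PD454, PD7591 and PD883, all of mixed strain background. The comparison takes every library of these 2 treatments, 6 with ionomycin (2.5 µM, 48 h) and 6 with TGFb (10 ng/ml, 48 h), which is 12 of the 18 libraries of the series. Each treatment has 2 libraries in each line, numbered 15 and 16 (PD454), 3 and 4 (PD7591) and 9 and 10 (PD883) with ionomycin, and 17 and 18 (PD454), 5 and 6 (PD7591) and 11 and 12 (PD883) with TGFb. The 6 libraries of cells kept with the vehicle DMSO entered 1 alternative fit and no other test, and their levels are given once, as a description. All cells grew in a medium with dexamethasone and cholera toxin, among other supplements. The labels give no genotype for the lines and do not say whether the 2 libraries of a group came from separate cultures, so the p-values measure the spread between these libraries, which may be technical. All 9 ductal carcinoma markers of the list (among them Krt7, Krt8, Krt18, Krt19, Epcam, Cdh1, Sox9 and Muc1) passed the low-count filter. Their summed level was 5370 to 9660 CPM (counts scaled to library size) with ionomycin and 3990 to 6920 CPM with TGFb. The sum does not speak for each marker: Epcam was at 0.733 to 4.27 CPM over the 12 libraries, and Muc1 at 0.787 to 2.41 CPM with TGFb.

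TGFb binds a pair of serine/threonine kinase receptors that phosphorylate SMAD2 and SMAD3. With SMAD4 these enter the nucleus, switch on feedback inhibitors, matrix genes and the SNAI and ZEB repressors, and in many carcinoma cells drive epithelial-mesenchymal transition (EMT), in which junctions and keratins give way to matrix and contractile genes. Ionomycin carries calcium across membranes, which raises cytosolic calcium and empties the stores of the endoplasmic reticulum (ER). Cytosolic calcium acts through calmodulin, calcineurin and NFAT factors, while drained ER stores slow protein folding and engage the unfolded protein response and the integrated stress response, whose factor ATF4 induces genes for amino acid supply. Both agents can loosen epithelial character, and the direct comparison shows in which genes the 2 states differ.

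Library totals ran from 18128260 to 37894692 counts, with TGFb PD883 library 12 the deepest. The log2 CPM of the 2 libraries of a group had correlations of 0.988 to 0.997 across genes, and genes are not independent of each other. Each pair differed by more than sampling noise (chi-square per degree of freedom 4.84 to 81.7). Rn45s, a ribosomal RNA gene, made up 0.304% to 4.11% of a library with ionomycin and 0.256% to 1.04% with TGFb. Transcript length was set against each gene's departure from its mean level, and the correlation across genes ran from -0.064 to 0.149 with ionomycin and from -0.236 to 0.123 with TGFb, lowest in TGFb libraries 12 (-0.236) and 18 (-0.153), which are rich in short transcripts. Without Rn45s 8670 genes passed the test described next, with an offset for transcript length 8702 did, and without libraries 12 and 18 7893 did, against 8707 in the whole set.

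Most expressed genes told the treatments apart. Of 13506 genes tested, 8707 (64.5%) passed at a Benjamini-Hochberg adjusted p under 0.05 by the quasi-likelihood test of edgeR, in which line is a block: 4198 higher with ionomycin (31.1%) and 4509 lower (33.4%). These shares are the background for every gene group below. Against a log2 fold change of at least 1, 2348 genes passed (17.4%), 1382 higher (10.2%) and 966 lower (7.15%). The 6 ionomycin libraries lay wholly above the 6 TGFb libraries in 1994 genes (14.8%) and wholly below them in 1756. The sign was the same in each of the 3 lines in 8317 of the called genes (95.5%). On the first principal component, with 61.4% of the variance, 97.9% of the spread lay between treatments. The next 2 components held mainly differences between lines (97.2% and 95.4% of their spread). All fold changes are ionomycin over TGFb, on the log2 scale with the SE, and the median over all genes was -0.05. Higher and lower with ionomycin thus mean relative to TGFb, and do not say which treatment changed a gene.

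**Figure D1:**
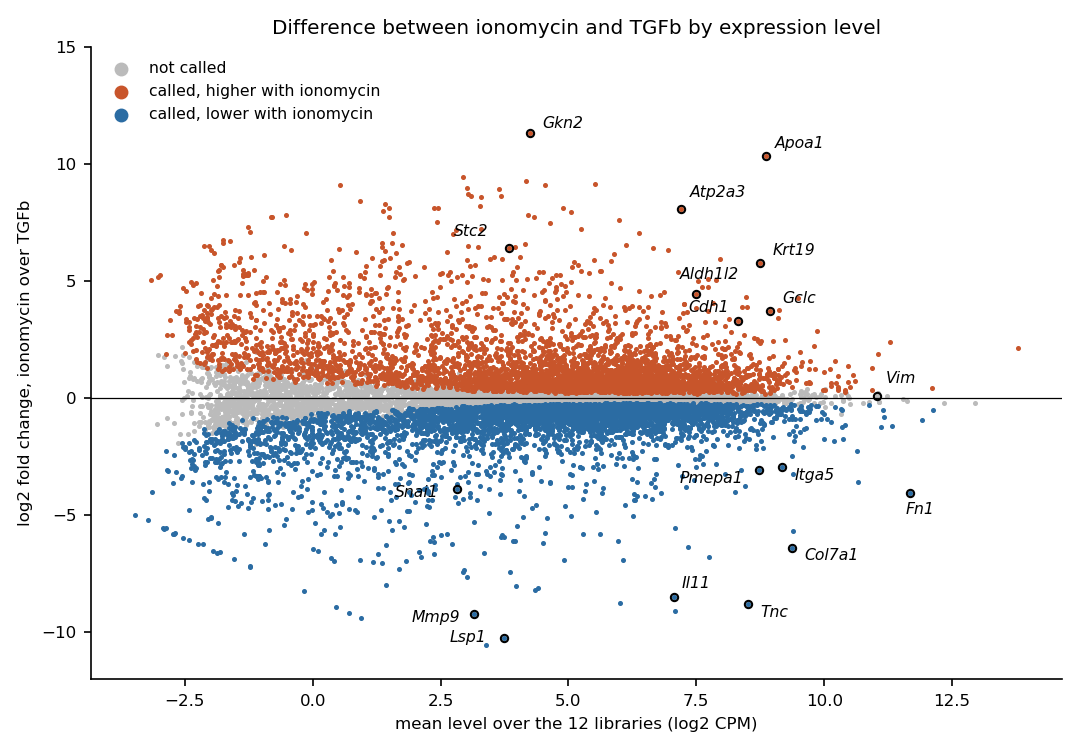
Log2 fold change of ionomycin over TGFb (vertical axis) against the mean level over the 12 libraries in log2 CPM (horizontal axis, each point 1 of 13506 genes). Orange points are the 4198 genes called higher with ionomycin, blue points the 4509 called lower and grey points those not called; for genes with few counts in a group the plotted fold change is a fitted value, not a bound. Krt19, Cdh1 and Atp2a3 lie above the line, Fn1, Tnc and Il11 below it, and Vim on it.

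The 10 genes that were highest with ionomycin relative to TGFb are described first. The gastrokines Gkn2 and Gkn1, secreted by mucous cells of the stomach surface, had 4417 and 1892 counts over the 6 ionomycin libraries and 1 and 3 over the 6 TGFb libraries. The ratio for Gkn2 was 5165 (exact 95% counting interval 926 to 204000), and for Gkn1 it was 737 (exact 95% counting interval 252 to 3579), each in units scaled to library size; the ionomycin levels ran from 3.27 to 113 CPM and from 1.17 to 47.0 CPM, with the high values in PD454. Apoa1, the main protein of high-density lipoprotein, stood at 353 to 1976 CPM (median 776) with ionomycin and 0.0989 to 2.76 CPM (median 0.354) with TGFb (10.33 ± 0.50, adjusted p = 6.85e-09). The lowest ionomycin library was far above the highest TGFb library. Agt, the precursor of angiotensin, was at 2.62 to 102 CPM (median 35.1) with ionomycin and 0 to 0.126 CPM (median 0.0716) with TGFb (9.11 ± 0.46, adjusted p = 3.08e-09). Fut2, a fucosyltransferase of mucosal secretions, had 1844 counts with ionomycin and 2 with TGFb, a ratio of 1078 (exact 95% counting interval 298 to 8909). Clic5, of a family of intracellular chloride channel proteins, was at 47.8 to 132 CPM (median 92.5) with ionomycin and 0 to 0.576 CPM (median 0.107) with TGFb (9.14 ± 0.32, adjusted p = 1.07e-10). The other genes among these 10 were the class II phosphoinositide kinase Pik3c2g (9.26 ± 0.40), the glucuronosyltransferase Ugt2b34 (8.95 ± 0.30), the fibrocystin-like Pkhd1l1 (8.72 ± 0.38) and the chemokine Ccl20 (8.64 ± 0.33), with adjusted p from 4.69e-11 to 5.55e-10. RNA of a bulk culture cannot tell fewer cells of a kind from less RNA per cell, here and in every result below.

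The 10 genes that were lowest with ionomycin relative to TGFb come next. Tnc, the matrix glycoprotein tenascin C, was at 0.340 to 5.64 CPM (median 0.743) with ionomycin and 205 to 1629 CPM (median 329) with TGFb (-8.80 ± 0.44, adjusted p = 6.76e-09). Has2, the main hyaluronan synthase of mesenchymal cells, was at 0 to 0.466 CPM (median 0.374) with ionomycin and 68.0 to 174 CPM (median 137) with TGFb (-8.77 ± 0.42, adjusted p = 3.30e-09). In both genes the lowest TGFb library was far above the highest ionomycin library. Il11, a cytokine of the interleukin 6 family, was at 0.0954 to 1.96 CPM (median 0.647) with ionomycin and 123 to 392 CPM (median 267) with TGFb (-8.48 ± 0.36, adjusted p = 1.18e-09). The fibrillar collagen chain Col5a3 stood at 0 to 1.21 CPM (median 0.435) with ionomycin and 132 to 439 CPM (median 247) with TGFb (-9.10 ± 0.36, adjusted p = 5.53e-10). Dll4, a Notch ligand best known from endothelial tips, was at 0.0477 to 0.326 CPM (median 0.101) with ionomycin and 29.9 to 59.8 CPM (median 36.8) with TGFb (-8.11 ± 0.22, adjusted p = 9.21e-12). Lsp1, an actin-binding protein of leukocytes, had 2 counts over the ionomycin libraries and 4283 over the TGFb libraries, a ratio in favour of TGFb of 1831 (exact 95% counting interval 507 to 15130). For the gelatinase Mmp9 the counts were 3 and 2320, a ratio of 661 (exact 95% counting interval 226 to 3209), and for the adhesion receptor Adgra1 1 and 3006, a ratio of 2571 (exact 95% counting interval 461 to 101600). Ctsw, a cathepsin known from cytotoxic lymphocytes, was lower by 8.02 ± 0.24 in log2 units (adjusted p = 2.03e-11). The mechanosensitive channel Piezo2 was at 0 to 0.373 CPM (median 0.108) with ionomycin and 0.409 to 95.1 CPM (median 48.0) with TGFb (-8.18 ± 0.49, adjusted p = 2.01e-08), with its low TGFb values in PD454.

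Genes that SMAD signalling induces were lower with ionomycin. Of 19 tested SMAD targets 14 were lower (73.7%, against 33.4% of all genes) and 2 higher (10.5%, against 31.1%), with a median log2 fold change of -1.40, against -0.05 over all genes. Pmepa1, a membrane protein that sequesters receptor-activated SMADs, was at 58.7 to 113 CPM (median 93.6) with ionomycin and 675 to 894 CPM (median 732) with TGFb (-3.08 ± 0.13, adjusted p = 3.39e-10). Its relative Ldlrad4 was at 4.96 to 7.78 CPM (median 6.39) with ionomycin and 47.2 to 78.0 CPM (median 59.8) with TGFb (-3.27 ± 0.14, adjusted p = 3.87e-10). Neither gene overlapped between the groups. Smad7, the inhibitory SMAD of the feedback loop, was at 34.1 to 177 CPM (median 72.5) with ionomycin and 189 to 356 CPM (median 291) with TGFb (-1.84 ± 0.35, adjusted p = 0.000567). Its call was lost with summed duplicates (adjusted p = 0.0614) and its value was -1.19 without line PD7591. Skil (SnoN), a SMAD corepressor, was lower by 0.76 ± 0.18 in log2 units (adjusted p = 0.00189), a call lost with summed duplicates (adjusted p = 0.0647) and without line PD7591 (0.0598). Skil moved to a log2 fold change of -0.40 without line PD7591. Tgfbi, a secreted TGFb-induced matrix protein, was close to the detection limit, with 22 counts over the ionomycin libraries and 135 over the TGFb libraries (-2.46 ± 0.45, adjusted p = 0.000292). The 2 higher genes were Ltbp3, a latent TGFb binding protein (log2 fold change 0.36 ± 0.11, adjusted p = 0.0120, lost with no line term (adjusted p = 0.0731), without line PD454 (0.0519), without line PD7591 (0.0797) and with the length offset (0.0838)), and Smad6, which is given with the calls near the threshold. Without any 1 of libraries 3, 5, 12, 15, 16, 17 and 18 the count of higher genes was 1, and without line PD454 or PD7591 it was 0. Ltbp3 moved to a log2 fold change of 0.21 with the length offset.

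The TGFb pathway itself differed in its ligands and receptors. Of 18 tested ligands, receptors and SMADs 10 were lower with ionomycin (55.6%, against 33.4%) and 4 higher (22.2%, against 31.1%; median -0.35). Tgfb1 mRNA was at 101 to 138 CPM (median 112) with ionomycin and 171 to 354 CPM (median 285) with TGFb (-1.29 ± 0.13, adjusted p = 9.37e-07). The type I receptor gene Acvr1 (ALK2) was at 14.9 to 23.2 CPM (median 19.4) with ionomycin and 102 to 123 CPM (median 110.3) with TGFb (-2.54 ± 0.11, adjusted p = 2.55e-10). The activin receptor gene Acvr1b (ALK4) went the other way, at 83.6 to 144 CPM (median 108) with ionomycin and 30.6 to 46.8 CPM (median 37.7) with TGFb (1.55 ± 0.11, adjusted p = 3.53e-08). Tgfbr3 (betaglycan), a coreceptor that presents ligand, was at 9.59 to 41.7 CPM (median 28.0) with ionomycin and 1.88 to 4.95 CPM (median 2.01) with TGFb (3.38 ± 0.24, adjusted p = 3.81e-08). The groups were separate for all 4 genes. The other 2 receptors that were higher with ionomycin, named after their values were seen, were Tgfbr2, the type II receptor that binds TGFb (1.15 ± 0.14), and the activin receptor Acvr2a (0.83 ± 0.12). Of 12 tested ID, bone morphogenetic protein (BMP) and activin genes 4 were higher (33.3%, against 31.1%) and 6 lower (50%, against 33.4%). The median was -1.14, and -0.69 without TGFb libraries 12 and 18. The list also holds activin subunit genes and the proteinase Bmp1, and none of the 6 lower genes was an ID gene or a BMP ligand. Id1, an inhibitor of basic helix-loop-helix factors that BMP signalling induces, was at 54.7 to 139.9 CPM (median 109.8) with ionomycin and 15.6 to 50.8 CPM (median 35.1) with TGFb (1.61 ± 0.09, adjusted p = 4.59e-09). Also higher were Bmp4 (2.16 ± 0.18) and, named after their values were seen, Bmp2 (2.71 ± 0.25) and Id2 (0.91 ± 0.18).

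Inhba, which encodes the subunit of activin A, a ligand that also signals through SMAD2 and SMAD3, was at 6.52 to 16.6 CPM (median 7.91) with ionomycin and 142 to 233 CPM (median 189.7) with TGFb (-4.32 ± 0.17, adjusted p = 1.42e-10). The procollagen proteinase Bmp1 was at 36.1 to 58.9 CPM (median 43.6) with ionomycin and 434 to 815 CPM (median 705) with TGFb (-3.77 ± 0.15, adjusted p = 1.99e-10). Both stood higher in every TGFb library than in any ionomycin library, and the Bmp1 difference was -3.32, -3.70 and -4.29 in PD454, PD7591 and PD883 (adjusted p for line dependence = 0.0289).

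Most EMT transcription factors were lower with ionomycin. Of 12 tested factors 8 were lower with ionomycin (66.7%, against 33.4%), 1 was higher (8.33%, against 31.1%) and the median was -0.93. Snai1, the SNAI repressor that SMADs induce, was at 0.158 to 1.91 CPM (median 1.08) with ionomycin and 6.75 to 23.5 CPM (median 12.6) with TGFb (-3.88 ± 0.30, adjusted p = 9.06e-08). Its close relative Snai2 (Slug) was the 1 factor that was higher, at 16.9 to 41.8 CPM (median 22.4) with ionomycin and 11.4 to 13.8 CPM (median 12.6) with TGFb (0.95 ± 0.17, adjusted p = 0.000228). The 2 Snail family genes thus lay apart in opposite directions, without overlap between the groups in either. The count of higher factors was 3 without line PD7591, and 2 without any 1 of libraries 3, 5 and 6 or with the length offset. Zeb2, a repressor of Cdh1, was at 8.74 to 21.5 CPM (median 10.7) with ionomycin and 41.2 to 77.4 CPM (median 59.7) with TGFb (-2.17 ± 0.19, adjusted p = 2.80e-07). Zeb1 stood at 68.2 to 85.9 CPM (median 72.1) with ionomycin and 97.3 to 157 CPM (median 127) with TGFb (-0.75 ± 0.11, adjusted p = 5.15e-05). Sox4, a SMAD-induced factor upstream of EMT, was at 129 to 225 CPM (median 158) with ionomycin and 511 to 954 CPM (median 723) with TGFb (-2.13 ± 0.16, adjusted p = 9.11e-08). Prrx1, at 0.474 to 5.49 CPM (median 2.05) with ionomycin and 0.0989 to 7.08 CPM (median 1.17) with TGFb, did not pass (0.36 ± 0.30, adjusted p = 0.308).

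Epithelial transcription and splicing factors were higher with ionomycin as a group. Of 14 tested factors 13 were higher (92.9%, against 31.1%; median 2.04), and 0 were lower in edgeR's test (1 at an unadjusted p under 0.05, 0 with DESeq2, 1 with limma-voom, and 1 without library 5 or library 10). Klf4, which supports epithelial genes, was at 114 to 177 CPM (median 144) with ionomycin and 9.26 to 22.4 CPM (median 16.9) with TGFb (3.22 ± 0.14, adjusted p = 3.39e-10). Grhl1, of the grainyhead factors that open epithelial enhancers, was at 5.88 to 28.3 CPM (median 12.8) with ionomycin and 0.324 to 1.83 CPM (median 0.621) with TGFb (4.35 ± 0.27, adjusted p = 1.10e-08). Esrp2, a splicing factor of epithelial isoforms, named after its value was seen, was at 35.6 to 46.4 CPM (median 40.5) with ionomycin and 10.2 to 19.1 CPM (median 15.4) with TGFb (1.5 ± 0.11, adjusted p = 5.07e-08). In the 3 genes no TGFb library reached an ionomycin library. Over the whole list this held for 6 of the 14 (14.8% of all genes). In 5 of the 14 the difference varied between lines (7.85% of all genes).

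Epithelial junction genes were mostly higher with ionomycin, with 3 claudins among those lower. Of 29 tested 17 were higher (58.6%, against 31.1%) and 5 lower (17.2%, against 33.4%; median 1.21). Cdh1, the epithelial cadherin, was at 507 to 619 CPM (median 571) with ionomycin and 19.0 to 128 CPM (median 51.0) with TGFb (3.31 ± 0.30, adjusted p = 9.74e-07). The ionomycin libraries lay close together, while among the TGFb libraries PD454 had the highest levels and library 12 of PD883 the lowest. Cldn3, a barrier claudin, was at 15.8 to 66.9 CPM (median 25.4) with ionomycin and 0.576 to 2.41 CPM (median 1.15) with TGFb (4.62 ± 0.23, adjusted p = 1.26e-09). Spint2, an inhibitor of epithelial surface proteases, was at 288 to 504 CPM (median 350.3) with ionomycin and 26.2 to 50 CPM (median 37.3) with TGFb (3.27 ± 0.17, adjusted p = 1.56e-09). The adhesion molecule Epcam stood at 1.99 to 4.27 CPM (median 3.32) with ionomycin and 0.733 to 1.77 CPM (median 1.40) with TGFb (1.38 ± 0.20, adjusted p = 4.86e-05). Epcam was low in all 12 libraries. Cldn4, another claudin, was the reverse, at 0.231 to 0.838 CPM (median 0.401) with ionomycin and 19.5 to 106 CPM (median 60) with TGFb (-6.90 ± 0.33, adjusted p = 1.71e-09). Cldn6 was also lower, by 1.56 ± 0.11 in log2 units (adjusted p = 3.14e-08), a call lost with no line term (adjusted p = 0.0811). The other 3 lower genes, named after their values were seen, were Jup, the plakoglobin of adherens junctions and desmosomes (-1.65 ± 0.13), Cldn23 (-2.99 ± 0.31) and Ctnnb1, the cadherin partner beta-catenin (-0.39 ± 0.09).

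Keratins and desmosomes were higher in 9 of 15 tested genes (60%) and lower in 2 (13.3%; median 0.76). Krt19, the keratin of ducts, was at 509 to 1250.2 CPM (median 820.1) with ionomycin and 4.08 to 60.4 CPM (median 9.77) with TGFb (5.77 ± 0.48, adjusted p = 7.12e-07). The highest TGFb value came from a PD883 library and stayed well below all ionomycin libraries. Ppl (periplakin), which links desmosomes to keratin, was at 149.8 to 525 CPM (median 452) with ionomycin and 4.35 to 48.6 CPM (median 8.56) with TGFb (4.74 ± 0.36, adjusted p = 3.53e-07). Krt23 stood at 139 to 215 CPM (median 182) with ionomycin and 5.54 to 17.1 CPM (median 12.9) with TGFb (3.91 ± 0.25, adjusted p = 4.29e-08). The desmosomal plakophilin Pkp1 went against the group, at 14.1 to 50.9 CPM (median 19.3) with ionomycin and 129 to 559 CPM (median 316) with TGFb (-3.49 ± 0.19, adjusted p = 3.30e-09). So did Krt20 (-1.42 ± 0.14, adjusted p = 1.11e-06), a call lost with no line term (adjusted p = 0.100).

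Mesenchymal markers were lower with ionomycin in 12 of 15 tested genes (80%, against 33.4%; median -1.76), and 0 were higher in edgeR's test (0 at an unadjusted p under 0.05, 0 with DESeq2 and 0 with limma-voom). Fn1, fibronectin, was at 221 to 575 CPM (median 396) with ionomycin and 3939.5 to 8205 CPM (median 6167) with TGFb (-4.05 ± 0.27, adjusted p = 3.94e-08). Itga5, the alpha chain of the fibronectin receptor, was at 99.8 to 168 CPM (median 126) with ionomycin and 774 to 1382 CPM (median 956) with TGFb (-2.96 ± 0.11, adjusted p = 1.06e-10). For both genes, every TGFb library was above every ionomycin library. Cdh2, the neural cadherin, was at 112 to 229 CPM (median 198) with ionomycin and 328 to 564 CPM (median 488) with TGFb (-1.41 ± 0.13, adjusted p = 6.55e-07). Vim, the intermediate filament vimentin, did not pass, at 1937 to 2523 CPM (median 2112) with ionomycin and 1694 to 2611 CPM (median 1921) with TGFb (0.10 ± 0.12, adjusted p = 0.507), and its sign turned without line PD7591 (-0.033). Acta2, smooth muscle actin, was at 0 to 1.44 CPM (median 0.101) with ionomycin and 0.185 to 13.7 CPM (median 1.71) with TGFb (-3.36 ± 0.41, adjusted p = 7.17e-06), with its higher levels in the TGFb pair of PD454. Of the fibroblast markers 2 of 6 tested were lower with ionomycin (33.3%, against 33.4% of all genes, a share near the background), Col1a1 (-3.97 ± 0.43) and Pdgfrb (3 counts over the ionomycin libraries, 705 over the TGFb libraries), both named after their values were seen. The Pdgfrb ratio, TGFb over ionomycin and scaled to library size, was 201 (exact 95% counting interval 68.5 to 977). Their summed level was 2.19 to 5.37 CPM with ionomycin and 7.38 to 101 CPM with TGFb, while Lum, Pdpn, Fap and Thy1 were below the filter; the part of other cells in these results was not tested.

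**Figure D2:**
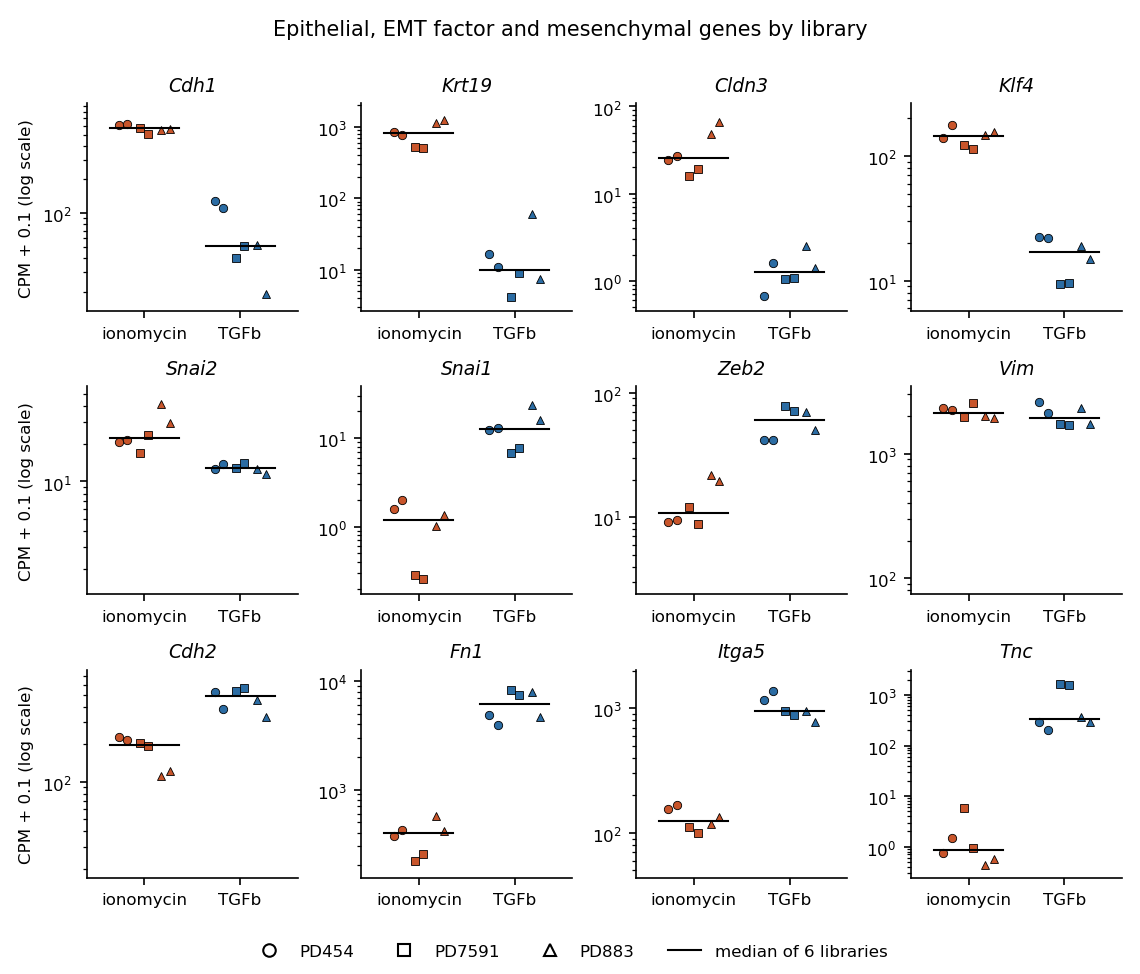
Level of 12 genes in each library, as CPM + 0.1 on a log axis, for the 6 ionomycin libraries (orange, left) and the 6 TGFb libraries (blue, right); the symbol gives the line and the bar the median. Cdh1, Krt19, Cldn3, Klf4 and Snai2 lie higher with ionomycin, Snai1, Zeb2, Cdh2, Fn1, Itga5 and Tnc lower, and Vim overlaps (1937 to 2523 CPM (median 2112) with ionomycin and 1694 to 2611 CPM (median 1921) with TGFb).

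Collagens were lower with ionomycin in 12 of 22 tested genes (54.5%, against 33.4%; 7 with no line term) and higher in 4 (18.2%; median -0.88; 2 without any 1 of libraries 12, 15, 16 and 18). Col12a1, a collagen of tendon and reactive matrix, was at 0.0459 to 0.419 CPM (median 0.131) with ionomycin and 18.2 to 51.2 CPM (median 26.4) with TGFb (-7.41 ± 0.40, adjusted p = 4.77e-09). Col7a1, the anchoring fibril collagen, was at 2.87 to 71.4 CPM (median 12.7) with ionomycin and 1054 to 1633 CPM (median 1218) with TGFb (-6.38 ± 0.69, adjusted p = 6.86e-06). No library of either gene crossed into the other group. Type VI collagen went the other way: Col6a2 was at 114 to 233 CPM (median 166) with ionomycin and 5.55 to 48.8 CPM (median 11.1) with TGFb (3.46 ± 0.38, adjusted p = 7.56e-06). Col6a1 stood at 295 to 587 CPM (median 386) with ionomycin and 30.4 to 364 CPM (median 67.7) with TGFb (2.11 ± 0.37, adjusted p = 0.000319). The ranges of Col6a1 overlapped. Among laminins and matrix glycoproteins 16 of 29 were lower (55.2%) and 9 higher (31.0%, against 31.1% of all genes; median -0.70). Efemp1 (fibulin 3) was at 61.8 to 139 CPM (median 70.5) with ionomycin and 1.14 to 2.57 CPM (median 2.33) with TGFb (5.36 ± 0.19, adjusted p = 8.85e-11). The basement membrane laminin Lamb2 stood at 192 to 264 CPM (median 229) with ionomycin and 42.7 to 75.4 CPM (median 57.1) with TGFb (1.98 ± 0.10, adjusted p = 1.88e-09). Both were higher in each ionomycin library than in any TGFb library. The thrombospondin gene Thbs1, which encodes an activator of latent TGFb and was named after its value was seen, was at 9.87 to 69.4 CPM (median 21.6) with ionomycin and 746 to 1784 CPM (median 1424) with TGFb (-5.69 ± 0.57, adjusted p = 3.29e-06).

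Integrins split, with 7 of 13 tested genes higher with ionomycin (53.8%, against 31.1%) and 4 lower (30.8%, against 33.4%; median 0.98). Itgb7, a partner of the alpha 4 and alpha E chains, was at 12.7 to 31.6 CPM (median 16.9) with ionomycin and 0.247 to 0.784 CPM (median 0.569) with TGFb (5.11 ± 0.20, adjusted p = 1.37e-10). The collagen receptor chain Itga1 stood at 10.2 to 34.9 CPM (median 30.1) with ionomycin and 0.942 to 5.29 CPM (median 2.30) with TGFb (3.36 ± 0.20, adjusted p = 7.03e-09). Besides Itga5, the vitronectin receptor chain Itgb3 was lower, at 63.4 to 109.5 CPM (median 93.1) with ionomycin and 275 to 460 CPM (median 359) with TGFb (-2.02 ± 0.17, adjusted p = 1.63e-07). Also lower, named after their values were seen, were Itgb1, the common beta chain (-0.88 ± 0.13), and Itgb5 (-0.64 ± 0.18), whose call was lost without line PD883 (adjusted p = 0.0966). Itgb5 moved to a log2 fold change of -0.40 without line PD883. Actin and contractile genes were lower with ionomycin in 15 of 21 cases (71.4%, against 33.4%) and higher in 2 (9.52%; median -0.90). Cald1 (caldesmon), which regulates actomyosin, was at 27.8 to 78.5 CPM (median 57.8) with ionomycin and 444 to 515 CPM (median 475) with TGFb (-3.24 ± 0.19, adjusted p = 8.22e-09). The focal adhesion gene Zyx stood at 66.5 to 104 CPM (median 81.0) with ionomycin and 194 to 268 CPM (median 258) with TGFb (-1.62 ± 0.12, adjusted p = 8.88e-08). The tropomyosin Tpm2 was higher, at 134 to 214 CPM (median 161) with ionomycin and 58.2 to 78.9 CPM (median 67.9) with TGFb (1.3 ± 0.13, adjusted p = 9.17e-07). So was the actinin Actn4 (0.36 ± 0.12, adjusted p = 0.0153), a call lost with no line term (adjusted p = 0.137), with summed duplicates (0.0679), without line PD454 (0.0961) and without TGFb libraries 12 and 18 (0.0707). Actn4 moved to a log2 fold change of 0.24 without TGFb libraries 12 and 18.

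Extracellular proteases told the states apart gene by gene, with 8 of 19 higher with ionomycin (42.1%) and 9 lower (47.4%; median -0.46, and -0.17 without TGFb libraries 12 and 18). Mmp14, the membrane collagenase, was at 86.6 to 271 CPM (median 151) with ionomycin and 367 to 944 CPM (median 649) with TGFb (-2.02 ± 0.09, adjusted p = 3.81e-10). Mmp10 (stromelysin 2), named after its value was seen, was at 0 to 0.263 CPM (median 0.207) with ionomycin and 0.509 to 34.3 CPM (median 11.1) with TGFb (-6.23 ± 0.44, adjusted p = 3.44e-08). The collagenase Mmp13 was the opposite, at 16.4 to 254 CPM (median 64.5) with ionomycin and 0.463 to 15.7 CPM (median 9.24) with TGFb (3.89 ± 0.51, adjusted p = 3.27e-05). The membrane protease Mmp15 stood at 7.74 to 40.3 CPM (median 31.7) with ionomycin and 0.732 to 5.82 CPM (median 2.58) with TGFb (3.15 ± 0.19, adjusted p = 7.18e-09). Mmp3 (stromelysin 1) had 1599 counts with ionomycin and 10 with TGFb (7.0 ± 0.52, adjusted p = 5.78e-08), nearly all of the ionomycin counts in PD7591, without which the log2 fold change was 3.43. Mmp3, Mmp10 and Mmp13 lie in 1 cluster on chromosome 9, and each holds an AP-1 site, the motif that FOS and JUN factors bind, before its start.

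Of the 250 bases before the first listed RefSeq start (GRCm38.p6), 80 that hold the site are shown on the strand of the gene, 5′ to 3′, with the letters TGANTCA in capitals, since this motif stands before all 3 genes while their directions differ. They lie at chr9:7445739-7445818 (Mmp3), chr9:7272434-7272513 (Mmp13) and chr9:7502242-7502321 (Mmp10), all on the plus strand.
Mmp3: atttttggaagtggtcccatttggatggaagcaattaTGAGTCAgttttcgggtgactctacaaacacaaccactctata
Mmp13: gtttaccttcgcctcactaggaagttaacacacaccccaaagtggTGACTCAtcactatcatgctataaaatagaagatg
Mmp10: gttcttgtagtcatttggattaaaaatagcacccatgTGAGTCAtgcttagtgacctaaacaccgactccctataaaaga
The motif, which reads the same on both strands, was in 5 of 14 protease promoters in the table (35.7%) and in 483 of 10330 promoters of all genes tested (4.68%). Of other motifs searched in the same way, the SNAI and ZEB E-box CAGGTG was in 9 of 22 junction gene promoters (40.9%, against 15.3% of all, chosen after its share was seen). The 9 genes include Cldn4 and Cldn6, which were lower with ionomycin, and Crb3, Epcam, Pard6b, Patj, Spint2 and Tjp3, which were higher. The SMAD box CAGACA was in 2 of 11 SMAD target promoters (18.2%, against 13.4%). It was also in 4 of 12 tRNA synthetase promoters (33.3%) and 7 of 20 laminin and matrix glycoprotein promoters (35%), shares chosen after they were seen. Among genes passing against a log2 fold change of 1 it was before 19% of those lower and 13.3% of those higher. A match is a description of these letters and not of binding.

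Calcium pumps of the ER were higher with ionomycin. Of 22 tested genes for calcium channels, pumps and stores 15 were higher with ionomycin (68.2%, against 31.1%) and 4 lower (18.2%, against 33.4%; median 0.42). Atp2a3 (SERCA3), a pump that refills the ER, was at 133 to 377 CPM (median 327) with ionomycin and 0.278 to 3.25 CPM (median 0.689) with TGFb (8.08 ± 0.36, adjusted p = 2.11e-09). The ubiquitous Atp2a2 (SERCA2) was at 815 to 1197 CPM (median 1113) with ionomycin and 297 to 521 CPM (median 456) with TGFb (1.38 ± 0.10, adjusted p = 5.39e-08). All 6 ionomycin libraries exceeded all TGFb libraries for both pumps. The plasma membrane pump Atp2b4 was lower, at 1.56 to 65.1 CPM (median 6.24) with ionomycin and 94.4 to 204 CPM (median 120.3) with TGFb (-3.58 ± 0.62, adjusted p = 0.000300). The Golgi pump Atp2c1, also lower, stood at 72.4 to 102 CPM (median 84.1) with ionomycin and 139 to 179.5 CPM (median 152) with TGFb (-0.85 ± 0.09, adjusted p = 1.18e-06). The other 2 that were lower, named after their values were seen, were the release channels Ryr1 (-2.21 ± 0.42), close to the detection limit with ionomycin, and Itpr1 (-0.54 ± 0.14; -0.85 with the length offset).

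Most calcineurin and NFAT genes did not pass the test. Of 14 tested 4 were higher (28.6%, against 31.1%) and 2 lower (14.3%, against 33.4%; 4 with library totals, 5 with the length offset), with a median near 0 whose sign changed with the scaling. Rcan1, a calcineurin inhibitor that calcineurin itself induces, was at 23.1 to 241 CPM (median 163) with ionomycin and 18 to 34.0 CPM (median 24.8) with TGFb (2.23 ± 0.34, adjusted p = 0.000119), with 1 PD883 library with ionomycin inside the TGFb range. Its relative Rcan3 was at 77.5 to 103 CPM (median 94.0) with ionomycin and 30.4 to 49.6 CPM (median 44.2) with TGFb (1.12 ± 0.11, adjusted p = 1.28e-06). The catalytic calcineurin gene Ppp3cc was higher too (1.02 ± 0.15, adjusted p = 5.44e-05), as was the regulatory Ppp3r1 (0.41 ± 0.09). Ppp3r1 was named after its value was seen. Nfatc2, a calcineurin-regulated transcription factor, was higher with TGFb, at 0.579 to 6.93 CPM (median 2.60) with ionomycin and 8.0 to 49.9 CPM (median 28.9) with TGFb (-3.11 ± 0.30, adjusted p = 1.3e-06). Higher with TGFb too was Nfatc4 (-2.11 ± 0.31, adjusted p = 4.16e-05). Calcium sensors were called in both directions, 13 of 29 higher (44.8%) and 11 lower (37.9%; median 0.04). The sign of the median turned with library totals (-0.02), and it was 0.32 with the length offset and 0.20 without TGFb libraries 12 and 18. The kinase Camk2d was at 298 to 428 CPM (median 379) with ionomycin and 47.1 to 61.5 CPM (median 58.6) with TGFb (2.68 ± 0.11, adjusted p = 2.02e-10). The annexin Anxa4, which binds membranes in calcium, stood at 787 to 1252 CPM (median 1015) with ionomycin and 162 to 203 CPM (median 183) with TGFb (2.47 ± 0.12, adjusted p = 1.18e-09). The annexins Anxa5 (-1.28 ± 0.11, adjusted p = 1.80e-07) and Anxa6 (-1.23 ± 0.15, adjusted p = 7.41e-06) lay on the TGFb side.

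Immediate early genes, which answer mitogens, stress and calcium within minutes, were higher with ionomycin in 8 of 27 cases (29.6%, against 31.1%). With summed duplicates 5 were higher. They were lower in 12 (44.4%, against 33.4%). In 13 of the 27 (48.1%, against 7.85% of all genes) the difference between the treatments varied between lines. This was not particular to them: it also varied in 6 of 15 desmosome and keratin genes and in 9 of 23 p53 targets and cell cycle inhibitors. In the respiratory chain list it varied in 0 of 25. Fos, of the AP-1 factor, was at 10.2 to 64.3 CPM (median 20.5) with ionomycin and 0.694 to 3.66 CPM (median 2.60) with TGFb (3.63 ± 0.46, adjusted p = 2.38e-05). The stress factor Atf3 stood at 18.6 to 99.9 CPM (median 58.5) with ionomycin and 6.23 to 9.46 CPM (median 7.65) with TGFb (2.66 ± 0.35, adjusted p = 3.07e-05). Neither gene overlapped between the groups. Egr2, a zinc finger factor, was at 0.316 to 2.89 CPM (median 1.9) with ionomycin and 4.97 to 20.8 CPM (median 12.1) with TGFb (-2.87 ± 0.25, adjusted p = 2.67e-07). Ier3 stood at 45.9 to 84.2 CPM (median 61.5) with ionomycin and 122 to 299.9 CPM (median 249) with TGFb (-1.80 ± 0.17, adjusted p = 6.22e-07).

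Of the 36 lists of pathways and functions (the marker lists aside), the integrated stress response had the highest share of genes higher with ionomycin. The epithelial factors (13 of 14, 92.9%) came close behind. The lists were chosen with earlier results of these data known, so this rank is a description only. Of 25 tested stress response genes 24 were higher (96.0%, against 31.1%) and 1 lower (4.0%, against 33.4%). Against a log2 fold change of 1, 19 passed (76.0%, against 10.2%), and the median was 2.00. In 23 of the 25 (92.0%, against 14.8%) every ionomycin library exceeded every TGFb library. Stc2, a secreted stanniocalcin that ATF4 induces, was at 11.9 to 49.8 CPM (median 27.1) with ionomycin and 0.157 to 0.418 CPM (median 0.321) with TGFb (6.40 ± 0.20, adjusted p = 2.03e-11). Aldh1l2, a mitochondrial enzyme of the folate cycle, was at 256 to 435 CPM (median 337) with ionomycin and 8.01 to 23.6 CPM (median 17) with TGFb (4.46 ± 0.17, adjusted p = 1.11e-10). Ddit4, an inhibitor of the growth kinase mTORC1, was the 1 lower gene (-0.67 ± 0.18, adjusted p = 0.00534), a call lost with no line term (adjusted p = 0.166) and without line PD454 (0.0897). Ddit4 moved to a log2 fold change of -0.41 without line PD454. Chosen after their values were seen for the sequences below, the asparagine synthetase Asns was at 309.8 to 473 CPM (median 363) with ionomycin and 56.6 to 130.3 CPM (median 88.6) with TGFb (2.08 ± 0.18, adjusted p = 2.88e-07). The glutathione-cleaving Chac1 stood at 51.7 to 137 CPM (median 122) with ionomycin and 12.1 to 25.1 CPM (median 17.7) with TGFb (2.48 ± 0.14, adjusted p = 3.83e-09). Pck2, the mitochondrial carboxykinase, was at 269 to 402 CPM (median 348) with ionomycin and 49.4 to 64.6 CPM (median 54.0) with TGFb (2.59 ± 0.11, adjusted p = 2.91e-10). The cystine transporter Slc7a11 was at 368 to 583 CPM (median 436) with ionomycin and 6.48 to 58.0 CPM (median 8.61) with TGFb (5.03 ± 0.48, adjusted p = 2.31e-06). The groups were separate for each of these 4.

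ATF4 with a C/EBP partner is known to bind a composite element in the promoters of such genes. Searched as TGATGNAA on both strands of the 250 bases before the first listed start, it was in 6 of 23 stress response promoters in the table (26.1%; Asns, Atf3, Chac1, Nupr1, Pck2 and Pycr1), in 3 of 12 tRNA synthetase promoters (25.0%), in 2 of 13 amino acid transporter promoters (15.4%) and in 201 of 10330 promoters of all genes tested (1.95%). The 80 bases around it are shown for 4 genes that were higher with ionomycin, on the strand of the gene, 5′ to 3′, with the element in capitals (RefSeq, GRCm38.p6): chr6:7693210-7693289 on the minus strand (Asns), chr2:119351013-119351092 on the plus strand (Chac1), chr14:55540127-55540206 on the plus strand (Pck2) and chr3:50443617-50443696 on the minus strand (Slc7a11, with 2 copies).
Asns: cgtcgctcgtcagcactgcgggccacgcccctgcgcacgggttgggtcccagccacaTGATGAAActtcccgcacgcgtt
Chac1: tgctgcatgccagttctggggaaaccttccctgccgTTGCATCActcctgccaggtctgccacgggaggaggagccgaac
Pck2: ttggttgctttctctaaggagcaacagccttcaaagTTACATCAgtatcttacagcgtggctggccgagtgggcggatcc
Slc7a11: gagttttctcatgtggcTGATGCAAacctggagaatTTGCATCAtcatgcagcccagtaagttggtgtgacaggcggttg
In Chac1, Pck2 and the second copy of Slc7a11 the capitals spell the element on the opposite strand. Among genes passing against a log2 fold change of 1 the element was before 3.6% of those higher and 1.72% of those lower. The stress response list gathers genes already tied to this response, so its share is no test of ATF4. A match describes letters and not binding, and the part of ATF4 was not tested.

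Most amino acid transporters and tRNA synthetases were higher too. Of 18 amino acid transporters 13 were higher with ionomycin (72.2%) and 1 lower (5.56%; median 1.38), which is given with the calls near the threshold. The glycine transporter Slc6a9 was at 174 to 243 CPM (median 196) with ionomycin and 19.6 to 29.3 CPM (median 24.9) with TGFb (3.02 ± 0.11, adjusted p = 9.88e-11). The neutral amino acid transporter Slc1a4 stood at 115 to 173 CPM (median 123) with ionomycin and 35.8 to 47.9 CPM (median 39.7) with TGFb (1.72 ± 0.09, adjusted p = 1.52e-09). Of 20 cytosolic tRNA synthetases, which charge tRNAs, 16 were higher (80%) and 1 lower (5.00%; median 0.91; 2 without library 9). Gars (glycine) was at 493 to 615 CPM (median 577) with ionomycin and 232 to 320.4 CPM (median 275) with TGFb (1.05 ± 0.10, adjusted p = 6.45e-07). Wars (tryptophan) stood at 172 to 279.7 CPM (median 223) with ionomycin and 63.9 to 112 CPM (median 87.7) with TGFb (1.41 ± 0.13, adjusted p = 6.98e-07). In 14 of the 20 (70%, against 14.8%) the ionomycin libraries all lay above the TGFb libraries. The differences were small, and only 2 of the 20 were higher in the test against a log2 fold change of 1 (10.2% of all genes were). Farsa (phenylalanine) was lower (-0.49 ± 0.12, adjusted p = 0.00267), a call lost without line PD7591 (adjusted p = 0.0649). ER chaperones and genes of the unfolded protein response were higher in 16 of 24 cases (66.7%; median 0.56), and 0 were lower in edgeR's test (1 at an unadjusted p under 0.05, 1 with DESeq2, 1 with limma-voom, and 1 without any 1 of libraries 4, 9 and 12). Atf6, an ER-bound stress sensor, was at 366 to 478 CPM (median 447) with ionomycin and 82.7 to 125 CPM (median 100.2) with TGFb (2.09 ± 0.11, adjusted p = 2.78e-09). Herpud1, of ER-associated degradation, stood at 212 to 407 CPM (median 233) with ionomycin and 23.6 to 42.7 CPM (median 31.4) with TGFb (3.03 ± 0.17, adjusted p = 3.54e-09).

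Lysosome genes were higher with ionomycin in 24 of 36 cases (66.7%) and lower in 5 (13.9%; median 0.49; 3 with summed duplicates or without line PD454, 2 without line PD7591). Rragd, a GTPase that ties lysosomes to mTORC1, was at 5.55 to 15.9 CPM (median 7.68) with ionomycin and 0.455 to 0.833 CPM (median 0.583) with TGFb (3.80 ± 0.23, adjusted p = 6.90e-09). The sialidase Neu1 stood at 136 to 229 CPM (median 156) with ionomycin and 32.6 to 52.2 CPM (median 41.8) with TGFb (1.95 ± 0.15, adjusted p = 1.13e-07). The autophagy gene Wipi1 (-0.90 ± 0.09) and the glucuronidase Gusb (-0.85 ± 0.16) were lower. Gusb moved to a log2 fold change of -0.54 without line PD883. Further lower, named after their values were seen, were the protease Ctsd (-0.51 ± 0.13, lost without line PD7591 (adjusted p = 0.0766)) and the lysosomal regulator Tfe3 (-0.34 ± 0.10, lost with summed duplicates (adjusted p = 0.127), without line PD454 (0.235) and without line PD7591 (0.116)). Ctsd moved to a log2 fold change of -0.34 without line PD7591. Tfe3 moved to a log2 fold change of -0.18 without line PD454. Genes of the oxidative stress factor NRF2 and of glutathione were higher in 12 of 19 cases (63.2%) and lower in 2 (10.5%; median 0.84). Gclc, the rate-limiting enzyme of glutathione synthesis, was at 859.9 to 944 CPM (median 915) with ionomycin and 57.9 to 90.1 CPM (median 62.6) with TGFb (3.73 ± 0.11, adjusted p = 2.03e-11). The spread within each treatment was small beside the gap between them. Gsta1, a glutathione transferase whose reads may be shared with a near-identical paralog, was at 62.8 to 422 CPM (median 244) with ionomycin and 0.742 to 6.50 CPM (median 2.35) with TGFb (6.31 ± 0.23, adjusted p = 1.11e-10). The thioredoxin gene Txn1 was lower (-1.76 ± 0.15, adjusted p = 2.40e-07), and so was Srxn1 (-0.38 ± 0.10, adjusted p = 0.00326), whose call was lost with no line term (adjusted p = 0.185) and without line PD7591 (0.0904).

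**Figure D3:**
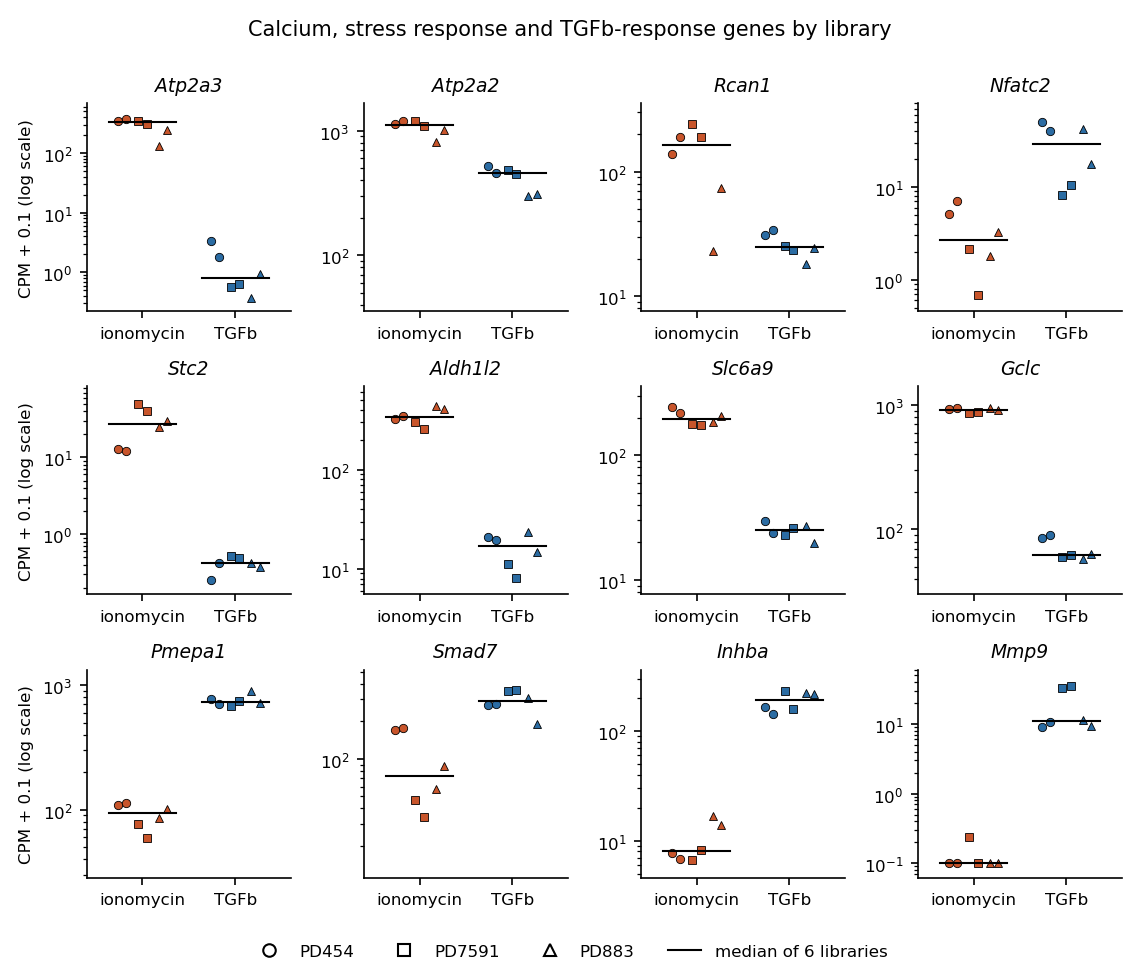
Level of 12 genes in each library, as CPM + 0.1 on a log axis, for the 6 ionomycin libraries (orange, left) and the 6 TGFb libraries (blue, right); the symbol gives the line and the bar the median. The pumps Atp2a3 and Atp2a2 and the stress genes Stc2, Aldh1l2, Slc6a9 and Gclc are higher with ionomycin, and Pmepa1, Smad7, Inhba, Nfatc2 and Mmp9 lower; Rcan1 has 1 ionomycin library at 23.1 CPM, within the range of the TGFb libraries.

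Lipid synthesis lay on the TGFb side. Of 31 sterol and fatty acid genes 20 were lower with ionomycin (64.5%, against 33.4%) and 4 higher (12.9%, against 31.1%; median -0.53; 2 higher without library 15 or 18). Nsdhl, a sterol dehydrogenase, was at 21.1 to 51.1 CPM (median 45.0) with ionomycin and 86.7 to 137 CPM (median 113) with TGFb (-1.54 ± 0.12, adjusted p = 1.10e-07). Acly, which makes cytosolic acetyl-CoA, stood at 229 to 318 CPM (median 292) with ionomycin and 528 to 604 CPM (median 584) with TGFb (-1.04 ± 0.09, adjusted p = 3.15e-07). The master regulator gene Srebf2 was higher, at 613 to 887 CPM (median 820) with ionomycin and 403 to 816 CPM (median 517) with TGFb (0.50 ± 0.12, adjusted p = 0.00264). The ranges of Srebf2 overlapped. Lss, lanosterol synthase, was also higher (0.64 ± 0.15, adjusted p = 0.00207), lost with no line term (adjusted p = 0.0682) and with summed duplicates (0.0595). Lss moved to a log2 fold change of 0.97 without line PD7591 and 0.38 without line PD883. Cell cycle genes were counted by phase. Of 22 G2 and mitosis genes 18 were higher (81.8%; median 0.62) and 0 lower in edgeR's test (0 at an unadjusted p under 0.05, 0 with DESeq2 and 0 with limma-voom). Hmmr, a spindle protein, was at 139 to 182 CPM (median 163) with ionomycin and 41.7 to 80.8 CPM (median 66.5) with TGFb (1.32 ± 0.13, adjusted p = 1.12e-06). The proliferation marker Mki67 stood at 336 to 758 CPM (median 586) with ionomycin and 103 to 468 CPM (median 205) with TGFb (1.45 ± 0.17, adjusted p = 4.15e-06). The ranges of Mki67 overlapped. Of 28 S phase genes 4 were higher (14.3%, against 31.1%) and 10 lower (35.7%, against 33.4% of all genes, a share near the background). The median was -0.17, and -0.08 without TGFb libraries 12 and 18. Without line PD7591 or without TGFb libraries 12 and 18, 6 were lower. Rrm2, the ribonucleotide reductase subunit, was at 253 to 682 CPM (median 511) with ionomycin and 59.0 to 209.6 CPM (median 101) with TGFb (2.02 ± 0.16, adjusted p = 1.55e-07), and the polymerase Pole was also higher (0.63 ± 0.14, and 0.41 with the length offset). The uracil glycosylase Ung (-1.35 ± 0.17) and the clamp loader Rfc3 (-1.35 ± 0.18) were lower, and the licensing factor Cdt1 was higher (0.55 ± 0.16, named after its value was seen, lost with summed duplicates (adjusted p = 0.103), without line PD454 (0.0891), without line PD883 (0.148) and without TGFb libraries 12 and 18 (0.0558)). Cdt1 moved to a log2 fold change of 0.92 without line PD7591 and 0.32 without line PD883.

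Targets of p53 and cell cycle inhibitors were higher in 13 of 23 cases (56.5%) and lower in 5 (21.7%; median 0.54, and 0.33 with the length offset; 3 lower without library 16 or 18, or without line PD7591 or PD883, and 2 with summed duplicates). Trp53inp1, a p53-induced stress protein, was at 179.9 to 236 CPM (median 219) with ionomycin and 16.3 to 37.5 CPM (median 25.8) with TGFb (3.07 ± 0.15, adjusted p = 1.18e-09). Sesn2, which ATF4 also induces, was at 62.5 to 85.7 CPM (median 80.3) with ionomycin and 12.2 to 31.4 CPM (median 17) with TGFb (2.06 ± 0.14, adjusted p = 2.49e-08). Cdkn2a, which encodes INK4A and ARF, was at 73.3 to 117 CPM (median 90.6) with ionomycin and 159 to 288 CPM (median 223) with TGFb (-1.23 ± 0.11, adjusted p = 2.79e-07). Also lower were Phlda3 (-0.79 ± 0.14) and, named after its value was seen, the kinase Plk2 (-1.19 ± 0.34, lost with summed duplicates (adjusted p = 0.174), without line PD7591 (0.100) and without line PD883 (0.113)). Plk2 moved to a log2 fold change of -1.86 without line PD454 and -0.57 without line PD7591. The glycolysis list also holds genes that are not glycolytic, among them Vegfa and Bnip3. Its genes were higher in 10 of 23 cases (43.5%, against 31.1% of all genes) and lower in 3 (13%, against 33.4%), with a median of 0.44. Pfkp, a phosphofructokinase, was at 192 to 273 CPM (median 242) with ionomycin and 49.8 to 122 CPM (median 64.9) with TGFb (1.68 ± 0.19, adjusted p = 5.09e-06), and Pgk1 was higher by 0.87 ± 0.14. Pfkfb4, which sets the level of an activator of glycolysis, was lower, at 2.05 to 5.54 CPM (median 3.99) with ionomycin and 34.4 to 58.4 CPM (median 45.4) with TGFb (-3.64 ± 0.25, adjusted p = 3.91e-08), and so was Vegfa (-1.43 ± 0.21, adjusted p = 4.10e-05), the endothelial growth factor. The third, named after its value was seen, was Pgam1 (-0.39 ± 0.12, lost with summed duplicates (adjusted p = 0.0697), without line PD454 (0.0542), without line PD883 (0.0941) and with the length offset (0.0712)). Pgam1 moved to a log2 fold change of -0.21 with the length offset. Nuclear genes of the respiratory chain were lower in 13 of 25 cases (52.0%; median -0.27, and -0.12 with the length offset), and 0 were higher in edgeR's test (0 at an unadjusted p under 0.05, 0 with DESeq2, 0 with limma-voom, and 1 with the length offset). TGFb libraries 12 and 18 were rich in short transcripts, and 7 were lower with the length offset, 6 without line PD454 and 7 without line PD7591. Cox5a (-0.58 ± 0.09) and Cox7a2 (-1.20 ± 0.18), subunits of cytochrome oxidase, had the smallest p.

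Interferon and antigen presentation genes were higher with ionomycin in 16 of 25 cases (64.0%) and lower in 3 (12%; median 0.87). Stat2 was at 47.6 to 102 CPM (median 82.6) with ionomycin and 16.9 to 35.3 CPM (median 31.3) with TGFb (1.43 ± 0.10, adjusted p = 3.55e-08). The class I gene H2-K1, whose reads may be shared with related class I genes, stood at 227 to 444 CPM (median 273) with ionomycin and 110.4 to 196 CPM (median 136) with TGFb (1.05 ± 0.09, adjusted p = 2.80e-07). The factor Irf1 (-1.31 ± 0.13) and the light chain B2m (-1.03 ± 0.15; -0.65 with the length offset) were lower, as was Oasl2 (-2.58 ± 0.56; -3.97 without line PD7591 and -1.61 without line PD883), named after its value was seen. Chemokine and NF-kB genes moved in either direction: 10 of 30 were higher (33.3%) and 11 lower (36.7%; 7 without TGFb libraries 12 and 18; median -0.26), shares close to those of all genes. Il33, an alarmin of barrier epithelia, was at 19.4 to 203 CPM (median 46.5) with ionomycin and 0.593 to 2.36 CPM (median 0.935) with TGFb (5.91 ± 0.27, adjusted p = 1.05e-09). Csf1, the macrophage growth factor, was at 49.5 to 74.8 CPM (median 57.3) with ionomycin and 252 to 449 CPM (median 297) with TGFb (-2.45 ± 0.10, adjusted p = 1.42e-10). Of 4 tested immune markers 2 were higher with ionomycin (50%, against 31.1% of all genes, and 1 without line PD454), while Csf1r and Lyz2 did not pass. The higher genes were Cd68 (2.20 ± 0.28) and Cd3e (62 counts with ionomycin and 7 with TGFb), both named after their values were seen. At these counts Cd3e could pass the low-count filter only through the ionomycin libraries, so the share of higher markers is partly set by the filter. The 4 summed to 8.89 to 28.6 CPM with ionomycin and 3.11 to 4.56 CPM with TGFb. The leukocyte marker Ptprc was below the filter, as were Adgre1, Cd79a and Itgam, and the part of other cells was not tested.

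Growth factors and their receptors were higher with ionomycin in 5 of 21 cases (23.8%, against 31.1%) and lower in 9 (42.9%, against 33.4%). Vegfa was counted again among those lower. The median was 0.20. The sign of this median turned without TGFb libraries 12 and 18 (-0.04), and it was 0.13 with library totals. The receptor gene Erbb3 was at 16.3 to 73.3 CPM (median 44.0) with ionomycin and 0.531 to 1.36 CPM (median 1.07) with TGFb (5.38 ± 0.34, adjusted p = 4.05e-08). Fgf1 stood at 15.8 to 101 CPM (median 39.9) with ionomycin and 1.15 to 2.87 CPM (median 1.6) with TGFb (4.64 ± 0.32, adjusted p = 8.28e-08). The other 3 that were higher, named after their values were seen, were the epidermal growth factor receptor ligands Ereg (2.07 ± 0.18) and Tgfa (1.32 ± 0.13), and Vegfb (0.63 ± 0.15, lost without line PD7591 (adjusted p = 0.0624)). Vegfc, the lymphatic growth factor, was at 2.62 to 5.59 CPM (median 4.61) with ionomycin and 37.8 to 73.3 CPM (median 63.4) with TGFb (-3.78 ± 0.11, adjusted p = 1.47e-11). Pdgfa, a mitogen of fibroblasts, stood at 17.2 to 34.5 CPM (median 18.6) with ionomycin and 88.5 to 205 CPM (median 112) with TGFb (-2.53 ± 0.09, adjusted p = 1.02e-10). Both were higher in all TGFb libraries. Targets and partners of the mechanosensitive factors YAP and TAZ were higher in 6 of 19 cases (31.6%, against 31.1% of all genes). They were lower in 10 (52.6%, against 33.4%), and in 5 without line PD7591 or with summed duplicates. Their median was -0.36. The DNA-binding partner Tead4 was at 26.6 to 69.2 CPM (median 34.0) with ionomycin and 3.92 to 11 CPM (median 7.16) with TGFb (2.56 ± 0.12, adjusted p = 1.05e-09). The Hippo gene Wwc1 (KIBRA) stood at 199.9 to 292 CPM (median 241) with ionomycin and 46.0 to 99.3 CPM (median 53.8) with TGFb (2.00 ± 0.12, adjusted p = 5.10e-09). Fjx1 (-1.34 ± 0.15) and Ajuba (-0.73 ± 0.09) were lower.

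Wnt and Notch genes were higher in 9 of 29 cases (31.0%, against 31.1% of all genes) and lower in 14 (48.3%, against 33.4%), with a median of -0.16. That median was -0.02 with limma-voom, -0.25 with the length offset and -0.30 without TGFb libraries 12 and 18. Wnt4 was at 29.2 to 299 CPM (median 89.9) with ionomycin and 0.418 to 12.4 CPM (median 3.5) with TGFb (4.69 ± 0.23, adjusted p = 1.56e-09). Rnf43, a ligase that removes Wnt receptors, stood at 12.4 to 21.5 CPM (median 18.6) with ionomycin and 0.531 to 1.94 CPM (median 1.19) with TGFb (3.92 ± 0.28, adjusted p = 3.57e-08). Besides Dll4, the Wnt effector Tcf7 was lower (-1.72 ± 0.12, adjusted p = 4.45e-08). Pancreatic and gastric lineage genes were higher with ionomycin in 13 of 19 cases (68.4%) and lower in 2 (10.5%; median 1.62). Without TGFb libraries 12 and 18, when 21 of the genes were tested, the median was 3.40. Beyond the gastrokines, the mucin gene Muc1, named after its value was seen, was at 6.13 to 102 CPM (median 61.1) with ionomycin and 0.787 to 2.41 CPM (median 1.58) with TGFb (4.87 ± 0.31, adjusted p = 3.87e-08). The ductal and progenitor factor Sox9 was lower, at 5.97 to 39.8 CPM (median 24.7) with ionomycin and 53.5 to 156 CPM (median 95.2) with TGFb (-2.33 ± 0.35, adjusted p = 9.98e-05), and so was the gastric protease Ctse (-1.03 ± 0.23, adjusted p = 0.00173), lost with no line term (adjusted p = 0.237) and with summed duplicates (0.0713). Ctse moved to a log2 fold change of -0.62 without line PD7591. Prostaglandin genes were higher in 3 of 10 cases (30%, against 31.1%) and lower in 2 (20.0%, against 33.4%). Their median was 0.41, and 0.27 without TGFb libraries 12 and 18. The prostaglandin transporters Slco2a1 (2.25 ± 0.32, adjusted p = 7.63e-05) and Abcc4 (0.70 ± 0.11, adjusted p = 6.80e-05) were higher, and the phospholipase Pla2g4a (-1.32 ± 0.10, adjusted p = 1.02e-07) and the cyclooxygenase Ptgs2 (-1.18 ± 0.26, adjusted p = 0.00174, lost with no line term (adjusted p = 0.0594)) were lower.

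**Figure D4:**
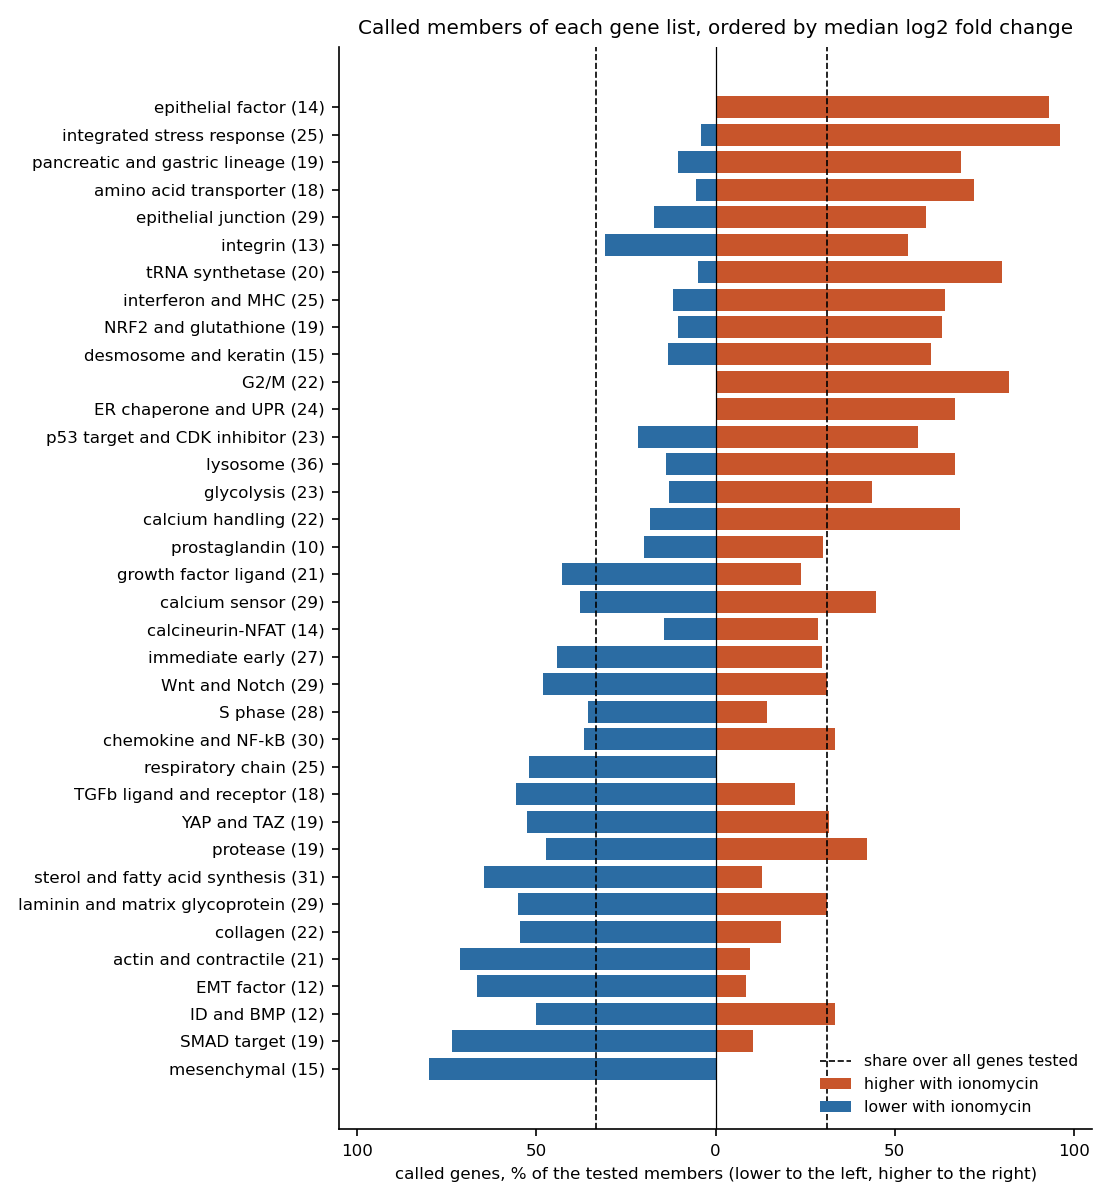
Share of the tested members of each of 36 gene lists (number tested in brackets) called higher with ionomycin (orange, to the right) or lower (blue, to the left), ordered by the median log2 fold change. Dashed lines mark the shares over all genes tested, 31.1% higher and 33.4% lower. Epithelial factors (13 of 14 higher) and the integrated stress response (24 of 25 higher) stand at the top, and SMAD targets (14 of 19 lower) and mesenchymal genes (12 of 15 lower) at the bottom.

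Some calls lay close to the threshold and were lost when single libraries were left out and under other settings. All of them except Smad6, Twist1 and Slc7a6 were named after their values were seen. Smad6, an inhibitory SMAD of the BMP branch (0.49 ± 0.21, adjusted p = 0.0488), was lost without any 1 of libraries 3, 5, 12, 15, 16, 17 and 18 (adjusted p from 0.0775 to 0.145). Smad6 also lost its call with library totals (adjusted p = 0.0752), with no line term (0.427), with summed duplicates (0.128), without line PD454 (0.482), without line PD7591 (0.0768) and without TGFb libraries 12 and 18 (0.229). Smad6 moved to a log2 fold change of 0.19 without line PD454, 0.80 without line PD883 and 0.32 without TGFb libraries 12 and 18. The EMT factor Twist1 (-0.29 ± 0.11, adjusted p = 0.0300) was lost without any 1 of libraries 3, 6, 10, 11, 16 and 18 (adjusted p from 0.0573 to 0.0921). Twist1 also lost its call with no low-count filter (adjusted p = 0.0863), with no line term (0.450), with summed duplicates (0.132), without line PD454 (0.0564), without line PD7591 (0.108), without line PD883 (0.145), with the length offset (0.610) and without TGFb libraries 12 and 18 (0.112). Twist1 moved to a log2 fold change of -0.06 with the length offset. The basement membrane collagen Col4a2 (0.33 ± 0.12, adjusted p = 0.0238) was lost without any 1 of libraries 10, 12, 15, 16 and 18 (adjusted p from 0.0520 to 0.0654). Col4a2 also lost its call with no line term (adjusted p = 0.102), with summed duplicates (0.105), without line PD454 (0.185), without line PD883 (0.1000) and without TGFb libraries 12 and 18 (0.132). Col4a2 moved to a log2 fold change of 0.21 without line PD454, 0.51 without line PD7591 and 0.20 without TGFb libraries 12 and 18. The related Col4a6 (0.75 ± 0.31, adjusted p = 0.0493) was lost without any 1 of libraries 3, 4, 5, 6, 9, 12, 15, 16, 17 and 18 (adjusted p from 0.0530 to 0.152). Col4a6 also lost its call with library totals (adjusted p = 0.0714), with no line term (0.326), with summed duplicates (0.202), without line PD454 (0.137), without line PD7591 (0.577), with the length offset (0.0933) and without TGFb libraries 12 and 18 (0.0749). Col4a6 moved to a log2 fold change of 0.32 without line PD7591 and 1.22 without line PD883. The amino acid transporter Slc7a6 (-0.38 ± 0.14, adjusted p = 0.0310) was lost without any 1 of libraries 3, 4, 5, 6, 9, 10, 11 and 12 (adjusted p from 0.0527 to 0.0927). Slc7a6 also lost its call with no line term (adjusted p = 0.173), with summed duplicates (0.179), without line PD7591 (0.382) and without line PD883 (0.232). Slc7a6 moved to a log2 fold change of -0.66 without line PD454 and -0.18 without line PD7591. The desaturase Scd1 (0.38 ± 0.14, adjusted p = 0.0232) was lost without any 1 of libraries 9, 12, 15 and 18 (adjusted p from 0.0560 to 0.0640). Scd1 also lost its call with no line term (adjusted p = 0.299), with summed duplicates (0.0697), without line PD454 (0.126), without line PD883 (0.0983) and without TGFb libraries 12 and 18 (0.144). Scd1 moved to a log2 fold change of 0.24 without TGFb libraries 12 and 18. The chromatin assembly gene Chaf1a (0.33 ± 0.13, adjusted p = 0.0443) was lost without any 1 of libraries 4, 5, 10, 11, 15, 16, 17 and 18 (adjusted p from 0.0509 to 0.127). Chaf1a also lost its call with library totals (adjusted p = 0.0890), with no line term (0.123), with summed duplicates (0.112), with all 18 libraries in the fit (0.0918), without line PD454 (0.239) and with the length offset (0.300). Chaf1a moved to a log2 fold change of 0.17 with the length offset. The prostaglandin E synthase Ptges (0.73 ± 0.30, adjusted p = 0.0479) was lost without any 1 of libraries 3, 4, 5, 6, 10, 12, 15, 16 and 18 (adjusted p from 0.0502 to 0.117). Ptges also lost its call with library totals (adjusted p = 0.0702), with no low-count filter (0.111), with limma-voom (0.0835), with no line term (0.841), with summed duplicates (0.215), without line PD454 (0.0598), without line PD7591 (0.213) and without TGFb libraries 12 and 18 (0.121). Ptges moved to a log2 fold change of 0.45 with limma-voom, 0.27 with no line term and 0.25 without line PD7591. The p53 target Sesn1 (-0.40 ± 0.14, adjusted p = 0.0206) was lost without any 1 of libraries 16 and 18 (adjusted p from 0.0546 to 0.0594). Sesn1 also lost its call with no low-count filter (adjusted p = 0.0728), with no line term (0.140), with summed duplicates (0.164), without line PD7591 (0.0857), without line PD883 (0.0942) and without TGFb libraries 12 and 18 (0.0924). The apoptosis gene Bax (-0.40 ± 0.15, adjusted p = 0.0318) was lost without any 1 of libraries 3, 10, 15, 16 and 18 (adjusted p from 0.0533 to 0.0948). Bax also lost its call with no line term (adjusted p = 0.0659), with summed duplicates (0.125), without line PD454 (0.455), with the length offset (0.262) and without TGFb libraries 12 and 18 (0.103). Bax moved to a log2 fold change of -0.12 without line PD454 and -0.17 with the length offset. The lysosomal glycoprotein Gpnmb, with 4 counts over the ionomycin libraries and 61 over the TGFb libraries (adjusted p = 0.0382), was lost without any 1 of libraries 3, 4, 5, 15, 16 and 17 (adjusted p from 0.0751 to 0.150). Gpnmb also lost its call with no low-count filter (adjusted p = 0.128), with limma-voom (0.235), with a mean per group (0.214) and with summed duplicates (0.131).

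The size of the difference between the treatments varied between lines in 1060 of 13506 genes (7.85%, edgeR quasi-likelihood test of the interaction on 2 degrees of freedom, adjusted p under 0.05). It rests on the spread between duplicate libraries alone, and the count was 480 to 629 without any 1 of libraries 4, 5, 6, 15 and 16, and 1659 without TGFb libraries 12 and 18. In 699 of these the 3 lines had the same sign, and in 361 they did not. Egr1, an immediate early zinc finger factor, had the smallest p, with log2 fold changes of 1.89, -1.97 and 1.74 in PD454, PD7591 and PD883 (adjusted p for line dependence = 4.78e-06). Its level was 47.6 to 266 CPM (median 137) with ionomycin and 36.4 to 212 CPM (median 67.6) with TGFb, and over the 3 lines it did not pass (0.70 ± 0.59, adjusted p = 0.314). In PD7591 the sign was thus the reverse of that in the other lines. The sulfotransferase Chst2 was lower in each line, with log2 fold changes of -4.53, -0.80 and -3.37 in the same order of lines (adjusted p = 8.19e-06; -2.81 ± 0.50 over the lines, a call lost with summed duplicates (adjusted p = 0.0635)). Ugt1a6a, a glucuronosyltransferase whose exons are partly shared with other Ugt1a genes, differed by 1.87, 7.23 and 5.55 (adjusted p = 1.06e-05), and the collagen Col7a1 by -4.19, -6.44 and -8.82 (adjusted p = 1.10e-05). For both genes PD454 had the smallest difference. Fos (4.58, 1.69 and 4.68, adjusted p = 7.56e-05) and Atf3 (3.66, 1.18 and 3.04, adjusted p = 0.000427) differed least in PD7591, while Smad7 (-0.66, -3.12 and -1.78, adjusted p = 0.00245) and Snai1 (-2.91, -5.34 and -4.17, adjusted p = 0.0225) differed most there.

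**Figure D5:**
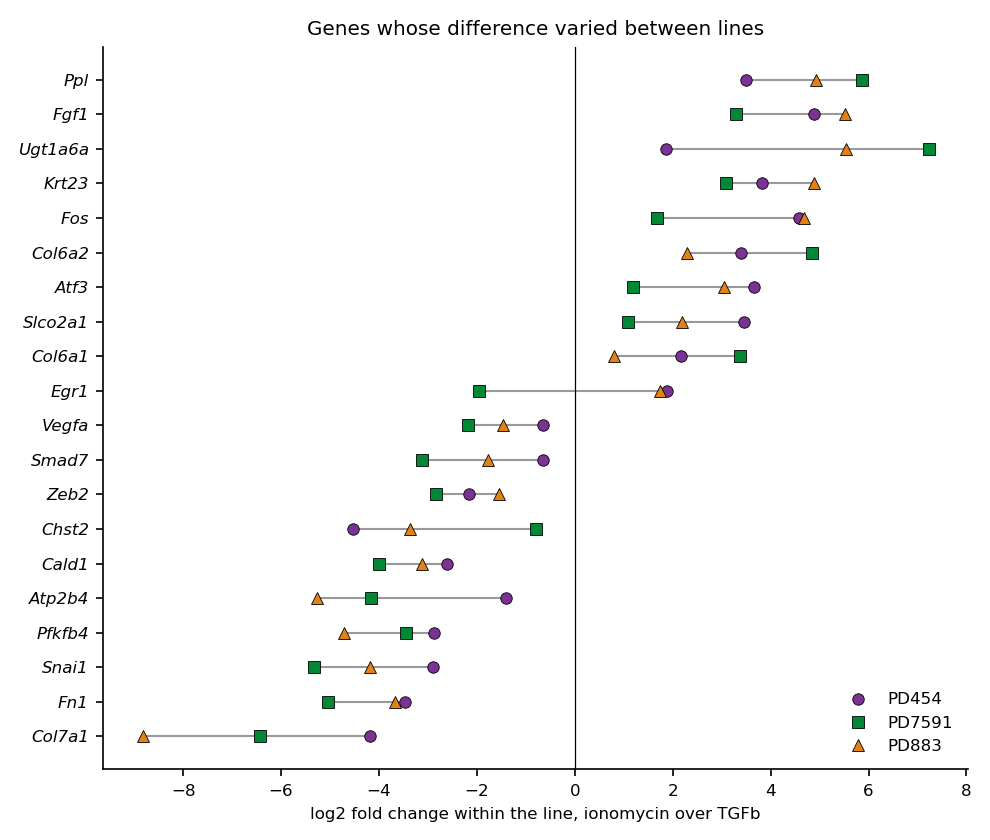
Log2 fold change of ionomycin over TGFb within each line (horizontal axis; circles PD454, squares PD7591, triangles PD883) for 20 named genes with an adjusted p under 0.05 for line dependence. Egr1 alone among these crosses 0, with 1.89 in PD454 and 1.74 in PD883 against -1.97 in PD7591, and Col7a1 spans -4.19 to -8.82.

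The levels with DMSO, on the same scale, place the 2 treatments without a test, since the comparisons of each treatment with DMSO share those libraries. Cdh1 was at 516 to 773 CPM (median 578) and Krt19 at 480.3 to 1728 CPM (median 693) with DMSO, ranges that overlap those with ionomycin. Tnc was at 0.0294 to 0.602 CPM (median 0.382), Has2 at 0 to 0.0882 CPM (median 0), Il11 at 0.0450 to 0.594 CPM (median 0.189) and Dll4 at 0 to 0.172 CPM (median 0.0969) with DMSO, near the ionomycin levels. Stc2 at 2.00 to 5.08 CPM (median 3.13), Atp2a3 at 7.6 to 26.1 CPM (median 12.7) and Clic5 at 3.38 to 13.9 CPM (median 7.63) lay between the ionomycin and the TGFb libraries, and Aldh1l2 at 18.4 to 89.9 CPM (median 52.5) below the ionomycin libraries and overlapping those with TGFb. Snai2, with 5.35 to 12.5 CPM (median 9.88), lay below or at the lower end of the TGFb range, and the sterol gene Nsdhl, with 77.8 to 140 CPM (median 104), overlapped it.

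Markers of other cell types were summed in the same way. Endothelial markers summed to 0.373 to 3.41 CPM with ionomycin and 0.0463 to 1.05 CPM with TGFb (3 of 8 tested). All 3 were higher with ionomycin (100%, against 31.1% of all genes), 0 with summed duplicates and 1 without library 17. At such low levels a marker can pass the low-count filter only through the treatment where it is high. This share is thus partly set by the filter and is no test of endothelial genes. Acinar markers summed to 1.93 to 3.48 CPM with ionomycin and 2.30 to 6.41 CPM with TGFb (2 of 9 tested). Of these 1 was higher (50%, against 31.1%) and 1 lower (50%, against 33.4%). None of the 7 endocrine markers passed the low-count filter. Squamous and basal markers summed to 18.2 to 137 CPM with ionomycin and 2.20 to 62.2 CPM with TGFb (4 of 9 tested). Here 2 were higher (50%, against 31.1%) and 2 lower (50%, against 33.4%), and 1 was higher without line PD454 or any 1 of libraries 3, 16, 17 and 18. The basal markers Krt5 and Trp63 were below the filter.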

How the data were processed

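Total RNA of treated tumour cell lines was sequenced in 18 libraries, of which 12 enter the tests. The authors deposited raw read counts per gene symbol in 1 table of 24527 rows; per the submitters' processing notes, CASAVA, Trimmomatic 0.32, STAR and featureCounts were used with mm10, while settings, annotation and strand mode were not given in the sources used here. Without strand, overlapping genes cannot be told apart. Which of the RNeasy and NucleoSpin kits served which library is not given either. The table holds 26 symbols turned into dates (19 tested, none named) and 0 mitochondrially encoded names.

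Counts were tested with edgeR 4.0.16 in R 4.3.3: 13506 genes passed filterByExpr over the 6 groups of line and treatment, TMM scaling was used, and a robust quasi-likelihood F test of treatment with the line as a block was adjusted by Benjamini-Hochberg at 0.05. Line dependence is the interaction test in the same tool. CPM use TMM-scaled library sizes, the SE is the absolute log2 fold change over the square root of F, and counting intervals are exact, at 95%, and cover counting error only. DESeq2 1.42.0, limma-voom (limma 3.58.1), other scalings, an unfiltered table, no line term, summed duplicates, a transcript length offset (99.2% of genes had a length), all 18 libraries, and fits without each line, each library, TGFb libraries 12 and 18 or Rn45s were alternatives.

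Genes were named by rule: the 10 largest changes each way (1 sign in all 3 lines, mean CPM of 2 or more), up to 2 genes each way per list with the smallest p, a fixed panel, and the 4 smallest p for line dependence; some genes the rule names are not reported here. The members and the 36 gene lists were chosen with earlier results of these data known. Promoter sequences come from RefSeq (GRCm38.p6): 10330 of 13506 genes matched by symbol.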

Additional observations from a re-analysis of the deposited data

Results flagged for a closer look

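The difference between ionomycin and TGFb itself differed between the 3 lines, by edgeR's quasi-likelihood test of the interaction, in the genes named here. For each the log2 fold changes of ionomycin over TGFb stand in the order PD454, PD7591 and PD883, each from 2 libraries per treatment, followed by the adjusted p of the line dependence over all 13506 genes.

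The difference was furthest from 0 in PD454 for Atf3 (3.66, 1.18 and 3.04, adjusted p = 0.000427), Sox9 (-3.38, -2.46 and -1.22, 0.0402), Slco2a1 (3.45, 1.09 and 2.20, 0.000908), Chst2 (-4.53, -0.80 and -3.37, 8.19e-06) and Muc1 (5.49, 5.27 and 3.54, 0.0404).

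It was furthest from 0 in PD7591 for Snai1 (-2.91, -5.34 and -4.17, adjusted p = 0.0225), Ppl (3.49, 5.87 and 4.93, 0.00175), Krt20 (-1.45, -1.91 and -0.91, 0.0262), Col6a2 (3.39, 4.84 and 2.28, 0.00466) and Col6a1 (2.17, 3.38 and 0.79, 0.00245). So it was for Tpm2 (1.25, 1.77 and 0.88, adjusted p = 0.0274), Cald1 (-2.61, -4.01 and -3.13, 0.00356), Vegfa (-0.65, -2.18 and -1.47, 0.00715), Ctse (-1.04, -1.82 and -0.21, 0.0259) and Fn1 (-3.46, -5.05 and -3.67, 0.0207). The same holds for Zeb2 (-2.15, -2.84 and -1.55, adjusted p = 0.0242), Smad7 (-0.66, -3.12 and -1.78, 0.00245), Skil (-0.65, -1.46 and -0.19, 0.0168), Ugt1a6a (1.87, 7.23 and 5.55, 1.06e-05) and Itgb1 (-0.39, -1.23 and -1.02, 0.0388). This was also so for Ptges (0.34, 2.41 and 0.13, adjusted p = 0.00527), Cp (2.56, 4.01 and 3.74, 0.0168) and Rbp4 (3.61, 5.55 and 4.72, 0.000905).

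In PD883 it was furthest from 0 for Bmp1 (-3.32, -3.70 and -4.29, adjusted p = 0.0289), Krt23 (3.82, 3.09 and 4.88, 0.00245), Pkp1 (-2.93, -3.40 and -4.15, 0.0317), Atp2b4 (-1.40, -4.15 and -5.27, 0.00356) and Anxa6 (-0.76, -1.15 and -1.79, 0.0314). So it was for Fos (4.58, 1.69 and 4.68, adjusted p = 7.56e-05), Herpud1 (2.39, 3.18 and 3.51, 0.0173), Gusb (-0.80, -0.28 and -1.47, 0.0173), Lss (0.74, 0.01 and 1.16, 0.00752) and Phlda3 (-0.67, -0.40 and -1.31, 0.0446). The same holds for Pfkfb4 (-2.87, -3.45 and -4.72, adjusted p = 0.00275), Fgf1 (4.90, 3.29 and 5.52, 0.00492), Col7a1 (-4.19, -6.44 and -8.82, 1.1e-05), Oasl2 (-2.89, -0.98 and -4.89, 0.0257) and C3 (2.36, 5.70 and 6.72, 0.000151). This was also so for Fth1 (1.34, 2.71 and 3.10, adjusted p = 0.00527), Mt2 (3.14, 4.43 and 5.19, 0.0162), Thbs1 (-3.65, -6.36 and -6.92, 0.00134), Asns (1.46, 2.11 and 2.67, 0.0354) and Slc7a11 (3.19, 5.74 and 6.13, 0.000282). Likewise for Col1a1 (-3.12, -2.79 and -5.66, adjusted p = 0.00161).

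The sign differed between the lines for Slc7a6 (0.23, -0.75 and -0.62, adjusted p = 0.0177), Egr1 (1.89, -1.97 and 1.74, 4.78e-06), Cdt1 (0.78, -0.16 and 1.02, 0.00702) and Plk2 (0.22, -2.37 and -1.40, 0.000151).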

How the results depend on the processing

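The count of genes told apart by the treatments, 8707, was within 1.5 times of itself under each change of scaling, filter, tool or design tried, between 6459 (summed duplicates) and 9203 (a mean per group), and between 8230 and 8771 when single libraries were left out (3979 to 4249 higher and 4208 to 4546 lower). Against a log2 fold change of 1 the counts were 2348, with 1382 higher and 966 lower. Line dependence was less settled: against 1060 genes, 2126 passed with no low-count filter, 1705 with DESeq2 and 1659 without TGFb libraries 12 and 18, and 480 to 1287 when single libraries were left out; the cause was not tested. Of 209 called genes in the text, 177 kept their call under every setting run other than the test against a log2 fold change of 1. Library totals in place of TMM moved the median of all genes to -0.11. The sign turned for Egr1 without line PD454 (-0.094) and without line PD883 (-0.031), and for Vim without line PD7591 (-0.033). No paired analysis was possible because library numbers are not shared between the treatments; the line is the block. With 2 libraries in each line and treatment, a line's own difference rests on 4 libraries, and genes with 3 or fewer counts in a treatment give ratios with wide counting intervals.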

Other observations

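The 6 genes given next code for secreted or plasma proteins. They were chosen after their values were seen for being higher with ionomycin and belong to no list of the report, so they show nothing about such genes as a group. Cp (ceruloplasmin), the copper carrier of plasma, was at 343 to 1698 CPM (median 1095) with ionomycin and 55.2 to 147 CPM (median 69.2) with TGFb (3.44 ± 0.23 on the log2 scale, adjusted p = 3.68e-08). The retinol carrier Rbp4 stood at 126 to 215 CPM (median 144) with ionomycin and 2.72 to 11.5 CPM (median 7.74) with TGFb (4.58 ± 0.27, adjusted p = 1.68e-08). Neither gene overlapped between the treatments. The complement component C3 was at 71.0 to 695 CPM (median 404) with ionomycin and 4.02 to 16.7 CPM (median 8.68) with TGFb (5.02 ± 0.69, adjusted p = 5.39e-05). The iron-scavenging lipocalin Lcn2 stood at 1.21 to 140.5 CPM (median 67.8) with ionomycin and 0.136 to 0.379 CPM (median 0.157) with TGFb (7.93 ± 0.58, adjusted p = 2.34e-07). Ttr (transthyretin) was at 8.31 to 33.3 CPM (median 10.1) with ionomycin and 0 to 2.76 CPM (median 0.0489) with TGFb (5.22 ± 0.65, adjusted p = 2.20e-05). Apob, the scaffold of large lipoproteins, was at 121 to 2412 CPM (median 431) with ionomycin and 3.92 to 533 CPM (median 29.2) with TGFb (3.77 ± 0.43, adjusted p = 1.07e-05), ranges that overlap; its call was lost with no line term (adjusted p = 0.0611).

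Some abundant genes, also chosen after their values were seen, told the treatments apart without overlap. The ferritin heavy chain Fth1 was at 3015 to 6676 CPM (median 3982) with ionomycin and 607 to 1297 CPM (median 647) with TGFb (2.39 ± 0.25, adjusted p = 2.90e-06). The metallothionein Mt2, which binds zinc and copper, stood at 752 to 3067 CPM (median 811) with ionomycin and 36.1 to 108 CPM (median 58.1) with TGFb (4.26 ± 0.34, adjusted p = 3.34e-07). Msln (mesothelin), a surface protein of many pancreatic carcinomas, was at 1361 to 2038 CPM (median 1645) with ionomycin and 189.9 to 247 CPM (median 235) with TGFb (2.85 ± 0.11, adjusted p = 1.17e-10). The secreted chaperone Clu (clusterin) was lower, at 212 to 275 CPM (median 250.1) with ionomycin and 2297 to 3725 CPM (median 2945) with TGFb (-3.59 ± 0.12, adjusted p = 6.09e-11). The actin-sequestering Tmsb4x, also lower, stood at 86.0 to 158 CPM (median 124) with ionomycin and 423 to 1989 CPM (median 1320.4) with TGFb (-3.22 ± 0.19, adjusted p = 5.40e-09).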
